A study of Mus musculus with 8 samples.

Results

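The genes described here are 10 genes used as hallmarks of endothelium: Cdh5, Cldn5, Esam, Pecam1, Emcn, Egfl7, Clec14a, Vwf, Myct1 and Robo4. SMAD4 binding near them was taken from ChIP-seq of MS1 cells, an established mouse endothelial line derived from pancreatic islets. The stimulated cells had received recombinant BMP9/10 at 1 ng/mL and the unstimulated cells fresh medium, in both cases after 24 h of serum starvation. Each of the 4 groups had 2 samples: SMAD4 immunoprecipitates (IP) of stimulated and of unstimulated cells, and input DNA of each. Neither the length of the stimulation nor the make-up of the BMP9/10 protein is given in the labels. The letters KD stand, unexplained, in the titles of both IP libraries from stimulated cells; "stimulated" below therefore means libraries labelled as stimulated SMAD4 IP.

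Peaks were chosen by position: a peak belonged to a gene when its summit lay inside the gene body or within 100 kb of it (RefSeq, GRCm38.p6, the assembly behind mm10). The rule found 29 of the 4333 peaks of the stimulated list and 14 of the 1133 peaks of the unstimulated list. The gene in question was the nearest protein-coding gene for 20 of those 29 stimulated and 11 of those 14 unstimulated peaks. The authors merged the libraries of a group before calling peaks, so each condition is 1 list, no difference between the lists has a replicate error, and no test over samples could be made. The lists rest on 41044888 stimulated and 52971023 unstimulated IP tags. The files hold no expression values, so the endothelial label of the cells was not checked against markers. A lower pileup from fewer bound cells and one from less binding per cell cannot be told apart in pooled chromatin.

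BMP9 and BMP10 circulate in blood and signal through the endothelial receptor ALK1 to SMAD1 and SMAD5, which enter the nucleus with their common partner SMAD4 and bind short CAGAC-type and GC-rich DNA elements. The pathway is known for holding vessels in a quiescent, mature state. Endothelial cells are joined by adherens junctions, tight junctions and further adhesion molecules, and they carry mucins, lectins and guidance receptors on their surface. Egfl7 and Vwf, although grouped with them, encode secreted proteins.

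At 3 of the genes a stimulated summit fell inside a RefSeq promoter window, which runs from 250 bases before to 50 after an annotated start, and the bases before the start are shown because they lie under or next to a summit. RefSeq (GRCm38.p6) held such windows for 6 of the 10 genes, 8 windows in all. A stimulated summit lay in 3 of these 8 windows and an unstimulated summit in 1, against 1.66% and 0.335% of all 32851 windows. Capitals mark every match, on either strand, to 7 words. The SMAD binding element was searched as CAGAC and in the palindromic form GTCTAGAC. The GC-rich elements known from BMP response genes were searched in the form GGCGCC and in the related form written GGAGCC. For ETS factors, which are active in endothelium, the words with their core were AGGAAG and, in the other form searched here, CCGGAA. The remaining word, for which no factor is named here, was CAGCC. No match overlapped another in these sequences. Each is written 5′ to 3′ on the strand of its gene.
Myct1 (chr10:5593478-5593727, plus strand): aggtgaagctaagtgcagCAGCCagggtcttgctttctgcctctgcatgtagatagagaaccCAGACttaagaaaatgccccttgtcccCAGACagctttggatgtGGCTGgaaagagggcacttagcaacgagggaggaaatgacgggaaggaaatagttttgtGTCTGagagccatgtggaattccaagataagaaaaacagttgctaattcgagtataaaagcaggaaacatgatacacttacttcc
Clec14a (chr12:58269259-58269508, minus strand): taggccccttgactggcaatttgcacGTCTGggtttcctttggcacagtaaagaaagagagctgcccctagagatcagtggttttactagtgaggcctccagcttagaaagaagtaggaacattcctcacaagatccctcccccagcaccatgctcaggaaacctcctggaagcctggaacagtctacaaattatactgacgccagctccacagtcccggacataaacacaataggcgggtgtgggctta
Egfl7, internal start (chr2:26583615-26583864, plus strand): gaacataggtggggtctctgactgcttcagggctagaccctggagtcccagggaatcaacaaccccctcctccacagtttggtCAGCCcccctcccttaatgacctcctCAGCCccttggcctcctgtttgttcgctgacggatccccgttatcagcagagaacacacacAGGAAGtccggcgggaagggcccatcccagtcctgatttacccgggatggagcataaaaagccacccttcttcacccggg

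The Myct1 stretch held 3 copies of CAGAC, all inside both the stimulated and the unstimulated peak. Of all promoter stretches of the same length, 2.32% held 3 copies or more and 42.2% held at least 1, as did 48.5% of the 544 whose window holds a stimulated summit. The copies lay 28, 48 and 76 bases from the stimulated summit and 66, 10 and 36 bases from the unstimulated one. Myct1 also had 2 copies of CAGCC, a word in 61.3% of all stretches and 73.0% of those 544. In the Clec14a stretch the only match was 1 CAGAC, 206 bases from the summit and outside the peak. The internal Egfl7 start had 1 AGGAAG inside its peak, 45 bases from the summit, and 2 copies of CAGCC outside it. AGGAAG stood in 29.5% of all stretches and 32.5% of the 544. The other words were in none of the 3. Of them, GGCGCC stood in 40.4% of the 544 and 9.59% of all stretches, and GGAGCC in 40.6% of the 544 and 26.0% of all. The shares for CCGGAA were 35.5% of the 544 and 12.0% of all, and those for GTCTAGAC 1.10% and 0.167%. A match or its absence describes these letters only.

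SMAD4 peaks lay near most of these genes after BMP9/10. In the stimulated list 9 of the 10 were the nearest gene of at least 1 peak, the exception being Robo4, and in the unstimulated list 5 were: Cdh5, Cldn5, Emcn, Egfl7 and Myct1. Over all 21887 protein-coding genes, 12.2% were nearest to a stimulated peak within 100 kb, 3.79% to an unstimulated one and 3.71% to both. When peaks nearer to another gene were counted too, all 10 had a stimulated and 6 an unstimulated peak, against 36.5% and 13.1% of all genes. Esam, Pecam1, Clec14a and Vwf were nearest to stimulated peaks and to no unstimulated peak; of all genes nearest to a stimulated peak, 69.7% had that pattern. These genes were picked with earlier results of these data known, and the background shares were not matched on gene size, spacing or activity.

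**Figure D1:**
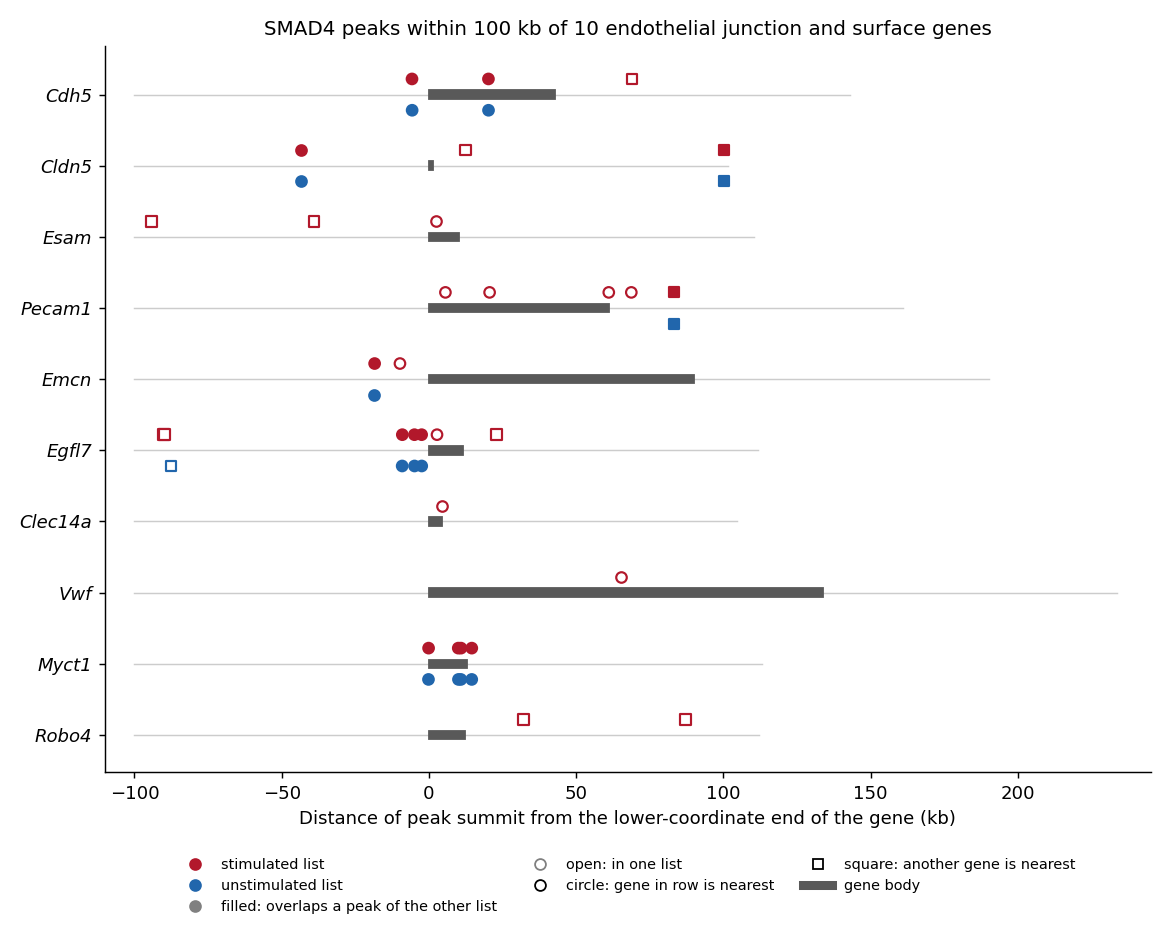
Positions of SMAD4 peak summits (kb from the end of each gene with the lower coordinate; grey bars are gene bodies, grey lines the 100 kb searched on each side). Red points above the line are stimulated peaks and blue points below it unstimulated ones; filled points overlap a peak of the other list, circles have the gene of the row as nearest gene and squares another gene. The 4 Myct1 sites and 3 sites before Egfl7 appear in both lists, and Esam, Clec14a, Vwf and Robo4 have red points only.

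Among the junction genes, Cdh5 encodes VE-cadherin, the adhesion molecule of endothelial adherens junctions. It was the nearest gene of 2 stimulated and 2 unstimulated peaks, and both sites were shared (overlap of at least 1 bp). The site 5.74 kb outside the gene body on its lower-coordinate side (mm10 chromosome 8, 104095716 to 104096072) had a pileup, the number of extended IP tags over the summit, of 35 tags in the stimulated and 34 tags in the unstimulated list. The site inside the gene (104121729 to 104122006) had 44 stimulated and 33 unstimulated tags. Their fold enrichments over input, as the authors gave them, were 4.50 and 3.46 in the stimulated list and 4.02 and 2.62 in the unstimulated one. By fold enrichment the stronger of them ranked 2190 of 4333 in the stimulated list, near its middle. A further stimulated peak (fold enrichment 5.93) lay 26.1 kb away inside Bean1.

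Cldn5 encodes claudin-5, a sealing protein of endothelial tight junctions that is known for its part in the blood-brain barrier. Its gene body spans only 1.42 kb on chromosome 16 (18776847 to 18778262), and no peak lay inside it or within 1 kb of it. The 1 peak for which Cldn5 was the nearest gene lay 43.5 kb before its start (18733252 to 18733483) and was shared, with 43 stimulated and 34 unstimulated tags and fold enrichments of 5.50 and 3.18. The other peaks in its window belonged to neighbours. A stimulated peak inside Cdc45 had a fold enrichment of 3.63, and a shared site inside Hira, 98.7 kb from Cldn5 and just inside the window, had 7.50 in the stimulated and 6.60 in the unstimulated list. Of summits just outside 100 kb, the closest were the Esam peak, 116 kb from Robo4, and a stimulated peak 124 kb from Emcn with a fold enrichment of 8.55. An unstimulated peak with a fold enrichment of 4.89 also lay 124 kb from Emcn, which was the nearest gene of both peaks at that distance.

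Esam encodes an immunoglobulin-family adhesion molecule of endothelial tight junctions. The 1 peak nearest to it lay inside the gene (chromosome 9, 37530304 to 37530442), with 28 stimulated tags, a fold enrichment of 6.04 and a width of 139 bp. The unstimulated list held no peak within 100 kb of Esam. Esam and Robo4, which encodes the endothelial Roundabout receptor that restrains vessel leak and sprouting, are 114 kb apart. The same 2 stimulated peaks lay within 100 kb of both genes. One was 0.549 kb outside Robo3 (37433903 to 37434217), with 39 tags and a fold enrichment of 8.0, and lay 19.96 kb from Robo4 and 94.1 kb from Esam. The other, of 18 tags, had its summit in the promoter window of Msantd2. Robo4 was the nearest gene of 0 peaks in either list.

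Pecam1 encodes CD31, which binds itself between neighbouring endothelial cells and takes part in flow sensing together with VE-cadherin. It was the nearest gene of 4 stimulated and 0 unstimulated peaks, spread over 63.1 kb of chromosome 11. Their pileups were 40, 32, 44 and 34 tags from the lower to the higher coordinate, with fold enrichments of 2.73, 5.90, 3.21 and 5.0. The third of these (106715209 to 106715402) had its summit 2 bp outside the higher-coordinate end of the gene, the closest to a gene end of all these peaks. The promoter windows used held no entry for Pecam1, so whether the gene starts at that end was not determined. The fourth (106722783 to 106723054) lay 7.65 kb beyond that end, and the first pair (106659609 to 106659892 and 106674751 to 106675032) inside the gene. Of all protein-coding genes, 0.544% (119 genes) were nearest to 4 or more stimulated peaks, and 26 of those 119 had 0 unstimulated peaks. The only unstimulated peak within 100 kb of Pecam1 was at a shared site 22.1 kb away that was nearest to Milr1, with 44 stimulated and 35 unstimulated tags.

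**Figure D2:**
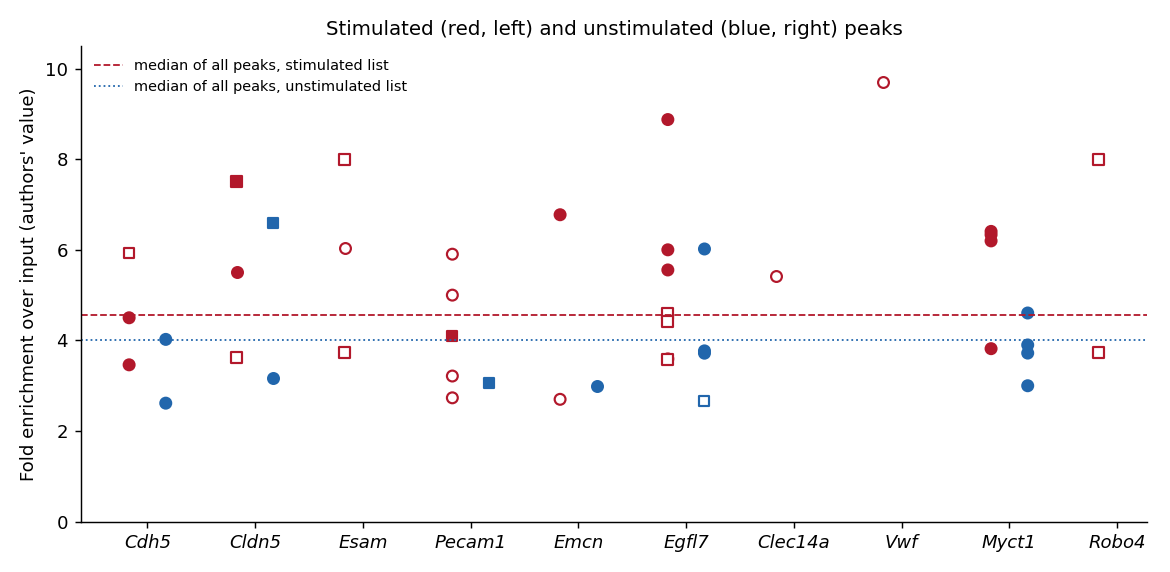
Fold enrichment over input (the authors' value, linear axis) of every peak within 100 kb of each gene; stimulated peaks are red and to the left, unstimulated peaks blue and to the right, with fill and shape as in the map of positions. The dashed and dotted lines are the medians of all peaks outside mitochondrial DNA, 4.56 in the stimulated and 4.0 in the unstimulated list. Vwf holds the highest value (9.70), at the lowest background of those stimulated peaks, and Egfl7 the highest at a shared site (8.88).

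Of the surface genes, Myct1, which encodes a small membrane protein enriched in endothelium, was bound at the same sites in both lists. All 4 of its stimulated peaks were shared with its 4 unstimulated peaks, within 14.7 kb of chromosome 10. Only 0.032% of all genes (7 genes) were nearest to 4 or more unstimulated peaks, and the others were Atp6ap2, Hes1, Pmepa1, Smad6, Zmiz1 and Id3. Its promoter site (5593534 to 5593811), with the stimulated summit 110 bp and the unstimulated summit 149 bp before the start, had 40 stimulated and 44 unstimulated tags. The sites inside the gene had 56 and 43 stimulated tags (5603536 to 5603875 and 5604452 to 5604802), against 38 and 34 unstimulated tags. The last site, 1.49 kb after the gene's end (5608024 to 5608373), had 41 stimulated and 31 unstimulated tags. The promoter site was thus the only one of the 4 with fewer tags in the stimulated list, which also had fewer IP tags in all.

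Egfl7 encodes a secreted protein of endothelial cells and carries the microRNA gene Mir126a in its body. It was the nearest gene of 4 stimulated and 3 unstimulated peaks. All 3 unstimulated sites lay before its first start and were shared. The site 2.47 kb before the start (chromosome 2, 26578296 to 26578793) had the highest pileup of all peaks near these genes, with 70 stimulated and 64 unstimulated tags. Those at 4.92 kb (26576085 to 26576236) and 9.03 kb (26571905 to 26572184) had 49 and 53 stimulated tags and 36 and 48 unstimulated tags. Fold enrichments at these sites, from the nearest to the farthest, were 8.88, 5.56 and 6.0 in the stimulated and 6.02, 3.72 and 3.77 in the unstimulated list. Being nearest to 3 or more unstimulated peaks was seen for 0.146% of all genes.

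The fourth Egfl7 peak was called in the stimulated list only and lay at the internal start shown above (26583759 to 26583876), with its summit 32 bp before that start, 36 tags, a fold enrichment of 3.59 and a width of 118 bp. Of all peaks near Egfl7, it was the closest to the miR-126a hairpin (26591357 to 26591429, plus strand), at 7.52 kb. The mature strand that Egfl7's microRNA is best known for is given for reference, with its seed (bases 2 to 8) in capitals.
mmu-miR-126a-3p: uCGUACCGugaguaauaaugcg
The window of Egfl7 also took in peaks of its neighbours. A pair of stimulated peaks inside Notch1 (fold enrichments 3.57 and 4.59) and a stimulated peak inside Agpat2 (4.42) had no unstimulated counterpart, and an unstimulated peak inside Notch1 (2.67) was the 1 unstimulated peak of the 14 that no stimulated peak overlapped.

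Emcn encodes endomucin, a sialomucin of capillary and venous endothelium. Within 100 kb it was the nearest gene of 2 stimulated peaks and 1 unstimulated peak, all before its start. The shared site at 18.4 kb (chromosome 3, 137322352 to 137322750) had 41 stimulated and 29 unstimulated tags and fold enrichments of 6.77 and 3.0. The stimulated peak at 9.83 kb (137331199 to 137331351) had 26 tags and the lowest fold enrichment of the 29, 2.70. None lay inside its gene body of 90.0 kb.

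Clec14a, which encodes a C-type lectin of the endothelial surface, had 1 peak within 100 kb, and it was in the stimulated list. Its summit (58268990 to 58269407, chromosome 12) lay 15 bp before the annotated start, with 37 tags, a fold enrichment of 5.43 and a width of 418 bp. Vwf encodes von Willebrand factor, the platelet-binding protein stored in Weibel-Palade bodies of endothelium. It likewise had 1 stimulated and 0 unstimulated peaks, deep inside the gene (chromosome 6, 125618031 to 125618159), 65.2 kb from its lower-coordinate end. That peak had 30 tags over a background of 2.19 tags, a fold enrichment of 9.70 and a width of 129 bp. The background, 0.0535 per 1000000 IP tags, was the lowest value of all stimulated peaks outside mitochondrial DNA. The high fold enrichment therefore rests on the lowest denominator. By fold enrichment the peak ranked 98 of 4333. Its pileup per 1000000 IP tags, 0.731, was close to the median of all stimulated peaks outside mitochondrial DNA, 0.707.

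Of the 29 stimulated peaks near the genes, 13 overlapped an unstimulated peak (44.8%, exact binomial 95% interval 26.4 to 64.3), against 25% of all stimulated peaks outside mitochondrial DNA. Of those with the gene nearest, 11 of 20 did (55%, 31.5 to 76.9). Both overlap counts, the 13 and the 11, include 4 peaks at Myct1 and 3 at Egfl7, so these genes weigh heavily in both shares. Conversely, 13 of the 14 unstimulated peaks overlapped a stimulated one (92.9%, 66.1 to 99.8), against 96% of all unstimulated peaks outside mitochondrial DNA. Neighbouring peaks are not independent, and these intervals cover counting error only. In placement, 3 of the 20 stimulated peaks with the gene nearest (15%, 3.21 to 37.9) had their summit within 1 kb of a gene end, at Pecam1, Clec14a and Myct1, against 18.8% of all stimulated peaks. The summit lay in a promoter window for 3 of the 20 (Myct1, Clec14a and Egfl7), against 10.6% of all stimulated peaks. Cdh5, Esam, Pecam1 and Vwf had no such window, so a summit at their own starts could not be counted. Inside a gene body lay 8 of the 20 (40%), against 46.8%. Over all 29 stimulated peaks, those nearer to other genes included, both position shares were on the other side of the background: 7 (24.1%, 10.3 to 43.5) lay within 1 kb of a gene end and 15 (51.7%, 32.5 to 70.6) inside a gene body. In a promoter window lay 4 of the 29 (13.8%). Both intervals over the 29 include the share of all peaks.

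Pileups at the 13 shared sites were compared per 1000000 IP tags of their list. Each was taken at the summit of its own list. The summits of a site lay between 16 bp (last Myct1 site) and 100 bp (Emcn) apart. Stimulated pileups ran from 0.853 to 1.71 with a median of 1.07, and unstimulated ones from 0.547 to 1.21 with a median of 0.642. Over all 1078 shared pairs outside mitochondrial DNA the medians were 1.05 and 0.698. The stimulated value was higher at all 13 sites, as it was at 98.4% of all shared pairs, with a median ratio of 1.63, against 1.47 over all pairs. At 9 of the 13 sites the counting interval of the ratio lay above 1, and at 36.6% of all pairs. With 99% in place of 95% intervals, 1 of the 13 lay above 1. The ranges of the lists overlapped: the unstimulated values 2.47 kb (1.21) and 9.03 kb (0.906) before Egfl7 were both above the lowest stimulated value, 0.853 at Cdh5. The interval sets each site against no change and not against the other shared sites, and no interval at these sites excluded the median of all pairs. With pileups left unscaled the median ratio was 1.26 and 0 intervals lay above 1.

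The highest ratio, 1.90 (counting interval 1.24 to 2.95), was at the first site inside Myct1, and the lowest, 1.17 (0.745 to 1.84), at the Myct1 promoter. Emcn had 1.82 (1.11 to 3.04) at its shared site, where the summits of the lists lay farthest apart. The site inside Cdh5 had 1.72 (1.07 to 2.79) and the one outside it 1.33 (0.805 to 2.20). Before Egfl7 the ratios were 1.41 (0.991 to 2.01), 1.76 (1.12 to 2.78) and 1.43 (0.946 to 2.15), from the nearest to the farthest site, and Cldn5 had 1.63 (1.02 to 2.64). All of these intervals overlapped one another.

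**Figure D3:**
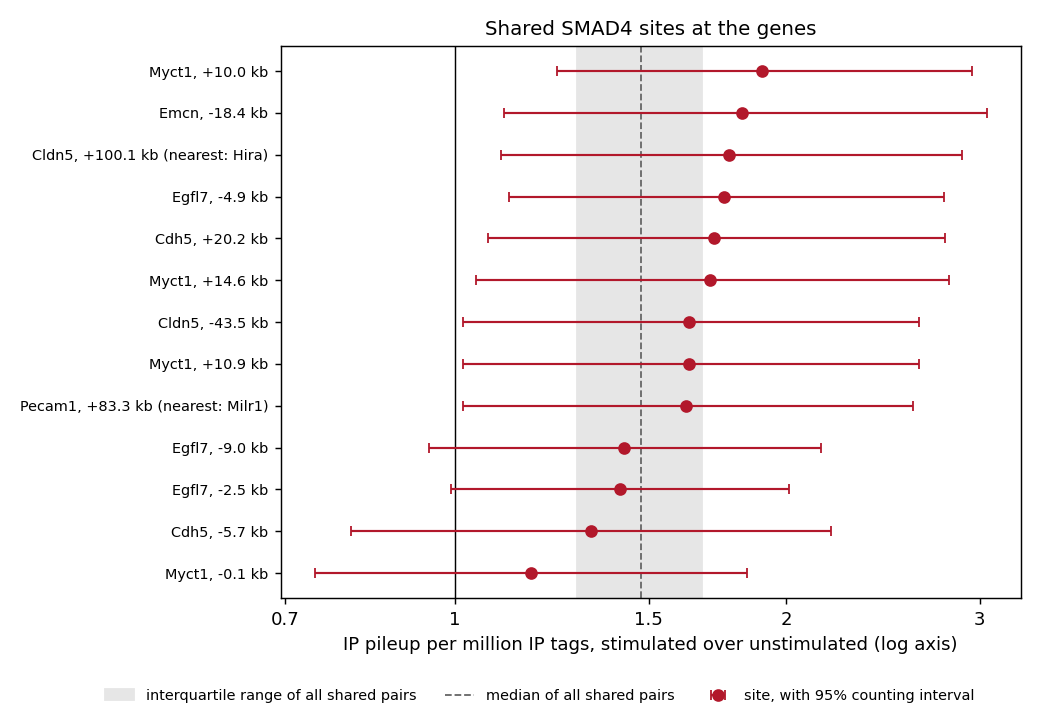
Ratio of IP pileup per 1000000 IP tags, stimulated over unstimulated (log axis), at the 13 shared sites, named by gene and by kb from its lower-coordinate end. Bars are exact binomial 95% counting intervals; the dashed line is the median (1.47) and the grey band the interquartile range of all 1078 shared pairs. All points lie right of 1, and the intervals of all 13 sites include the dashed line.

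Fold enrichment depends on the local background as well as on the pileup. It was higher in the stimulated list at all 13 sites (82.4% of all shared pairs), with a median ratio of 1.47 against 1.40 over all pairs. At the Myct1 promoter it was 6.41 in the stimulated and 3.0 in the unstimulated list, although this site had the lowest pileup ratio. There the local background recovered from the deposited values was 0.132 per 1000000 IP tags in the stimulated and 0.264 in the unstimulated list, a ratio of 0.498 and the lowest of the 13. At Emcn, where fold enrichment differed most (6.77 and 3.0), the background ratio was 0.746. The background was lower in the stimulated list at 5 of the 13 sites (49.8% of all pairs). At the last Myct1 site it was 1.70 times as high in the stimulated list, and fold enrichments there were 3.82 and 3.72.

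The 16 stimulated peaks without a counterpart had lower medians than the 13 shared ones, with overlapping ranges. The medians were 0.707 for pileup per 1000000 tags, 4.50 for fold enrichment and 182 bp for width, against 1.07, 6.0 and 340 bp at the shared ones. Over all stimulated peaks outside mitochondrial DNA the unshared had 0.633, 4.29 and 180 bp and the shared 1.05, 5.80 and 320 bp, so the genes' peaks differed between these classes in the same direction as all peaks. The files give no unstimulated pileup at a site that was not called. If the local background per tag had been the same as in the stimulated list, the lowest p of the unstimulated list would have been reached at 14 to 42 unstimulated tags, depending on the site. The stimulated pileup per tag was 1.08 to 2.77 times that limit, with a median of 1.52. All 16 sites had passed the stimulated call, and the unstimulated list had more IP tags. A stimulated value above the limit was therefore largely set in advance and does not measure the unstimulated signal at these sites.

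For Vwf the limit was 14 unstimulated tags, 0.264 per 1000000, and the stimulated value (0.731) was 2.77 times as high. The background assumed there was the lowest of all stimulated peaks outside mitochondrial DNA. The Robo3 site followed with 2.65, then Clec14a with 1.99, the second Pecam1 site with 1.97 and Esam with 1.90. At the other Pecam1 sites the quotients were 1.23, 1.42 and 1.83, from the lower to the higher coordinate. The internal Egfl7 start had 1.45, and the Emcn peak at 9.83 kb had 1.08. At a quotient under 1.47, the median ratio of shared pairs, an unstimulated pileup lower by just that ratio would have missed the limit. The absence of an unstimulated call at such sites therefore does not separate them from the shared ones. Whether a higher quotient separates a site was not tested. Ratios of shared pairs reached 2.86, above every quotient here, but their upper quartile was 1.68. All shared pairs had passed the unstimulated call, so their ratios cannot decide the question. The limit also assumes an equal background per tag, while background ratios at the 13 shared sites ran from 0.498 to 1.70.

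**Figure D4:**
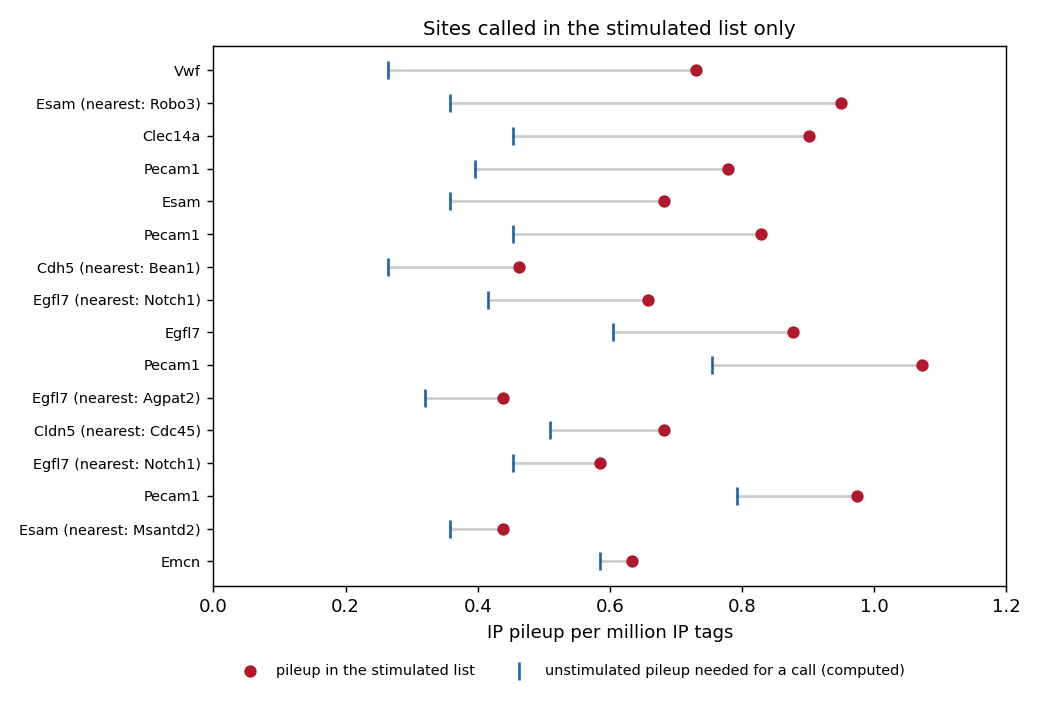
IP pileup per 1000000 IP tags (linear axis) at the 16 sites near the genes that were called in the stimulated list only. Red points are the stimulated pileups and blue ticks the unstimulated pileup that would have reached the lowest p of that list at an equal background per tag; the quotient of point over tick is highest at Vwf (2.77) and lowest at Emcn (1.08), while the gap on the axis is widest at the Robo3 site (39 stimulated tags, quotient 2.65).

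Other genes of endothelial junctions and surfaces, and genes of other cell types, were counted by the same nearest-gene rule. Of 23 further junction genes, 10 had a stimulated and 4 an unstimulated peak. The highest fold enrichment was at Ptprb (9.27, inside the gene), the phosphatase that associates with VE-cadherin. Next came Ctnna1 (8.25, inside the gene) and Ctnnb1 (6.50, 66.6 kb away), which encode the catenins alpha and beta that link cadherins to actin. Of 30 further endothelial surface genes, 14 had a stimulated and 7 an unstimulated peak. They were led by the VEGF receptor genes Kdr (7.50, 10.0 kb away) and Flt1 (6.57, 25.6 kb away). Podxl (6.56, inside the gene), which encodes a sialomucin, followed. Of 20 epithelial junction and surface genes, 3 and 1 did. The claudin gene Cldn4 (4.36, 4.85 kb away) did in both lists. Cldn3 (3.25, 2.51 kb away), another claudin gene, and Evpl (3.08, 1.64 kb away), which encodes envoplakin, did in the stimulated one. Of 15 leukocyte surface genes, 2 and 1 did. These were Ptprc (9.33, 23.5 kb away, both lists), which encodes CD45, and Il2ra (3.75, 7.50 kb away), which encodes an interleukin-2 receptor chain. Of 12 mural and fibroblast genes, 4 and 3 did, led by Thy1 (7.25, 97.8 kb away). Kcnj8 (6.23, 16.2 kb away), a potassium channel gene of pericytes, and Pdgfra (5.20, inside the gene), a PDGF receptor gene of fibroblasts, followed. The stimulated shares were thus 90% of the 10 genes, 43.5% and 46.7% of the other endothelial lists, and 15%, 13.3% and 33.3% of the epithelial, leukocyte and mural ones, against 12.2% of all genes. The unstimulated shares were 50% of the 10 genes, 17.4% and 23.3% of the other endothelial lists, and 5%, 6.67% and 25% of the epithelial, leukocyte and mural ones, against 3.79% of all genes. In the unstimulated list the mural and fibroblast share was thus above those of both other endothelial lists. These lists were not tested against each other, and they were chosen with earlier results known.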

How the data were processed

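SMAD4 ChIP-seq of MS1 cells was analysed from 2 peak lists. Per the file headers, the authors called narrow peaks with MACS2 2.1.0.20140616 on 2 merged IP libraries against 2 merged input libraries per condition, with 1 tag kept per position, tags extended to 100 bp and a q-value cutoff of 0.01; the band width was 200 (stimulated) and 300 (unstimulated). The deposited pileup is a coverage signal not scaled to depth, the deposited fold enrichment a ratio of IP to local background, and the deposited p-values and q-values are on a −log10 scale. Input tags numbered 59057559 (stimulated) and 72688953 (unstimulated). The build is mm10, per the submitters' processing notes, which also name HOMER; for the aligner, the sources used here give no name. The larger of IP and input was sampled down to the smaller, per the file headers, and the IP was the smaller in both lists.

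Deposited pileups were scaled to 1000000 IP tags. The local background was solved from fold enrichment, taken as pileup plus 1 over background plus 1; with it, a Poisson tail gave the deposited −log10 p to within 1% at all 4333 stimulated and 1133 unstimulated peaks. Shared peaks overlapped by at least 1 bp and were paired once each, closest summits first. Ratio intervals are exact binomial at 95% and cover counting error within pooled libraries only. Python 3.11.15, pandas 2.3.3 and scipy 1.17.1 were used, and the nearest-gene, overlap and interval steps were tested on simulated data. No test over samples was possible with 1 list per condition. All 10 genes were named, with the strongest peak per list and every peak at or inside the gene in full, and the 3 genes of highest fold enrichment in each comparison list. The genes and lists were chosen with earlier results of these data known. The call limit at sites missing from the unstimulated list was computed after the results were seen. Alternatives covered the window, the q minimum, the overlap rule, the scaling and the interval.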

Additional observations from a re-analysis of the deposited data

How the results depend on the processing

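Of 38 alternative values, 28 stayed within the tolerance and 10 moved beyond it; none reversed. The tolerance was 1.5 times for counts and, for the median ratio, the counting interval of the tags pooled over the 13 sites (1.40 to 1.79). A −log10 q minimum of 5 left 9 unstimulated peaks near the genes and 3 genes nearest to one. A minimum of 10 left 16 stimulated and 3 unstimulated peaks, 1 gene nearest to an unstimulated peak and 3 shared stimulated peaks. These settings remove peaks by construction. Cut to its 1133 peaks of highest −log10 q, the stimulated list held 13 peaks near the genes, against 14 in the unstimulated list; 7 of the 10 genes, and 3.87% of all genes, were nearest to one. Cdh5, Esam and Robo4 were not. Unscaled pileups gave a median ratio of 1.26 and 0 intervals above 1, and intervals at 99% left 1 above 1. Without stimulated peaks under 150 bp wide, an alternative chosen after the data were seen, 7 genes were nearest to a stimulated peak; the Vwf and Esam peaks are under that width. No paired analysis was possible because the libraries were pooled before peaks were called, and for the same reason no replicate could be left out. Pileups of 29 to 70 tags at the shared sites limit the precision of the ratios.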
